A study of Gallus gallus with 2 samples.

Results

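Proteoglycan core genes and the genes that build, sulfate and trim their glycosaminoglycan chains were compared between the wings of 1 chick embryo (Gallus gallus, strain not given in the sources used here). The genes were chosen by symbol (glypicans, syndecans, hyaluronan synthases, chain polymerases, sulfotransferases, epimerases, endosulfatases and the enzymes of precursor and linker synthesis) and by a mean expression of at least 1 TPM over both wings. Of 58 rows of the expression table whose symbol fitted, 56 reached that level, out of 24356 rows in all. Some of the 56 act on other sugars, as given below, among them CHST8, CHST9, B3GAT1, B3GAT2 and CHST10, and HAS2 makes a chain with no core. TPM is a measure of transcript abundance corrected for transcript length, with the sum of each library set to an equal total, so levels can be set side by side between genes.

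The right wing of the embryo had been injected with RCAS-GFP-SOCS2, a replicating avian retrovirus that carries GFP and SOCS2, a suppressor of cytokine signalling. Its left wing received no injection and is called the control wing, so treatment and body side cannot be told apart. The embryo had been picked as one in which SOCS2 was overexpressed, and RNA was taken separately from each wing 5 days after infection, at Hamburger-Hamilton stage HH 34. There was 1 library per wing. The differences therefore had no replicate check, no p-value was computed, and the depth behind each TPM value was unknown. The promoter that drives SOCS2 and the share of cells infected are unknown from the sources used here.

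The library of the injected wing carried more SOCS2 transcript, at 254 TPM against 54.2 TPM in the uninjected wing. TBX5, the transcription factor that defines the forelimb, stood at 113 TPM in the control and 137 TPM in the injected wing, and the hindlimb factor TBX4 at 5.25 and 1.79 TPM. PITX1, also a hindlimb factor, was close between the wings, at 15.2 and 15.3 TPM. Wherever a pair of values is given, the control wing comes first, and the number in brackets after it is the log2 ratio of injected over uninjected. The rule of size used throughout, a difference above 1.5-fold on log2(TPM + 0.1), is not a test. Among 13946 genes compared, those with a mean of at least 1 TPM and a value above 0 in both wings, it was passed upwards by 311 (2.23%) and downwards by 668 (4.79%), or by 435 and 523 once the abundance trend was taken out of the ratios. Markers of several cell types moved between the libraries. Of 11 cartilage markers, 10 lay above 0 on the log2 ratio scale, with a summed level of 2763 TPM in the control wing and 3376 TPM in the injected wing, and 9 of 10 skeletal muscle markers did so, with sums of 4685 and 5702 TPM. All 9 epidermis markers lay below 0, with sums of 693 and 562 TPM, although TP63 changed sign under another scaling. All 8 red blood cell marker rows also lay below 0, with sums of 2472 and 2026 TPM. Bone markers were below 0 for 3 of 4, with sums of 126 and 91.3 TPM, and Schwann cell and nerve markers above 0 for 6 of 7, with sums of 152 and 174 TPM. The 8 endothelial markers had sums of 399 and 393 TPM. Every marker with a row of its name was above 0 in both wings. In bulk tissue, fewer cells of a type and less RNA per cell cannot be told apart.

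As background, a proteoglycan is a core protein to which long, sulfated sugar chains are attached. Heparan sulfate chains on glypicans and syndecans at the cell surface bind FGF, Hedgehog, BMP and WNT proteins and shape how far these signals spread in the limb bud, and chondroitin sulfate fills the matrix of growing cartilage. A chain starts on a linker sugar, is extended by polymerases, and is then patterned by sulfotransferases, epimerases and, outside the cell, by endosulfatases. The roles given below are those known for the enzymes of human and mouse.

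The set of 56 genes as a whole was close between the wings. The 56 genes summed to 3865 TPM in the control wing and 3822 TPM in the injected wing, a log2 ratio of −0.02 for the sum. The median log2 ratio over the genes was −0.02, beside −0.04 over all genes compared, and 24 of the 56 (42.9%) lay within 0.1 of 0 on this scale, beside 38.7% of all genes compared. By the rule of size, none of the 56 genes passed 1.5-fold in the higher direction, with HS3ST4 just short of it. Of all genes 2.23% did, and of the 10976 genes with a symbol 1.69%. In the lower direction 3 passed, the glypican core gene GPC3, the sulfotransferase gene CHST9 and the heparan sulfate 3-O-sulfotransferase gene HS3ST2, which is 5.36% of the 56 beside 4.79% of all genes compared and 3.22% of those with a symbol, a share near the background. None passed 2-fold, which 0.502% of all genes did upwards and 1.48% downwards. The other 53 genes lay within 1.5-fold. A ratio above 0 was found for 24 genes and one below 0 for 32 (57.1%), beside 59.7% below 0 among all genes compared. Of these signs, 8 (GPC1, SDC3, SDC4, B4GALT7, CHST12, CHST15, CSGALNACT1 and B3GAT2) changed under at least 1 of 6 other settings of pseudocount, scaling or trend. The sign also changed for 1814 of all 13946 genes compared, so both counts were near the background.

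**Figure D1:**
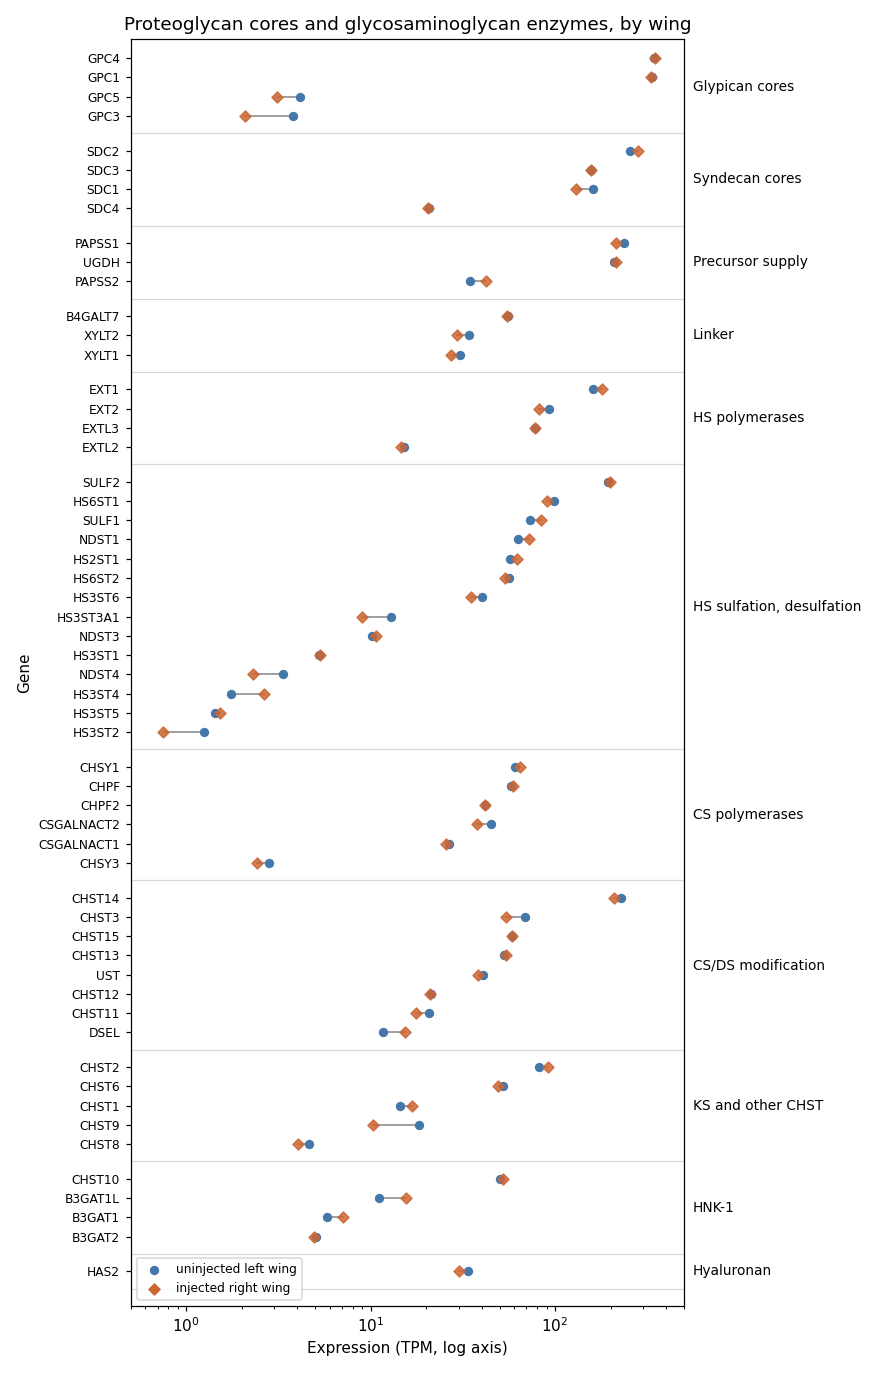
Expression of each of the 56 genes in the uninjected left wing (blue circles) and the injected right wing (orange diamonds), in TPM on a log axis, 1 library per wing, grouped by role; grey lines join both values of a gene. The points of most genes above 20 TPM nearly coincide, while the widest gaps belong to GPC3, CHST9 and HS3ST2, all with a mean under 15 TPM. HS is heparan sulfate, CS chondroitin sulfate, DS dermatan sulfate and KS keratan sulfate.

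Among the cores, 2 glypicans carried nearly all transcript of the 4 measured glypicans. GPC2 and GPC6 matched no row by name and could not be counted. Glypicans are tied to the membrane by a lipid anchor and carry heparan sulfate. GPC4 was at 345 TPM in the control wing and 350 TPM in the injected wing (log2 ratio 0.02), and GPC1 was at 338 and 331 TPM (−0.03). Both wings thus had GPC4 and GPC1 at nearly equal levels, with GPC4 at 1.02 times GPC1 in the uninjected and 1.06 times in the injected wing. GPC4 made up 49.95% and GPC1 48.9% of the summed TPM of the 4 measured glypicans in the uninjected wing. GPC4 had rank 369 and GPC1 rank 387 by mean TPM among the 13946 genes compared.

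GPC3 (ENSGALG00000006087), whose loss causes an overgrowth syndrome in humans and which binds Hedgehog proteins in mouse, was at 3.81 TPM in the control wing and 2.09 TPM in the injected wing. The injected wing was thus the lower library, at a log2 ratio of −0.84, the lowest of the 56 genes. GPC3 stayed lower by more than 1.5-fold under each of the 6 other settings of pseudocount, scaling and trend, between −0.87 and −0.64. Such settings recalculate the same libraries and are no replicate check. GPC5, another glypican of low level here, was at 4.15 and 3.12 TPM (−0.40). Together GPC3 and GPC5 made up little of the transcript of the 4 measured glypicans: GPC3 held 0.552% of it in the uninjected and 0.304% in the injected wing. The median log2 ratio of the 4 glypicans was −0.21, while the ratio of their summed TPM was −0.01.

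Syndecans are cores that span the membrane and carry heparan sulfate, some of them also chondroitin sulfate. SDC2 was the most abundant, at 256 TPM in the control wing and 281 TPM in the injected wing (0.13). SDC3 was at 156 TPM in both wings (−0.00), and SDC4 at 20.6 and 20.4 TPM (−0.02). SDC1, which is known for high levels in epithelia, was at 161 TPM in the control wing and 130 TPM in the injected wing (−0.31), the largest difference among the glypicans and syndecans above 20 TPM. The share of SDC1 in syndecan transcript was 27.2% in the uninjected and 22.1% in the injected wing, and that of SDC2 was 43.0% and 47.8%. Within a wing, where scaling has no part, SDC2 was 1.59 times SDC1 in the uninjected and 2.16 times in the injected library. The epidermis markers had a median log2 ratio of −0.32 in the same libraries, and their part in the SDC1 value was not tested.

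Precursors of the chains are made by UGDH, which oxidises UDP-glucose to UDP-glucuronic acid, and by PAPSS1 and PAPSS2, which make the sulfate donor PAPS. UGDH was at 209 TPM in the control wing and 215 TPM in the injected wing (0.04). PAPSS1 was at 236.3 and 213 TPM (−0.15). PAPSS2, mutated in human skeletal dysplasia and known for high levels in cartilage, was at 34.6 and 42.2 TPM (0.28). The pair of donor synthases thus lay on opposite sides of 0, both within 1.5-fold. Over the settings PAPSS1 ran from −0.16 to −0.10 and PAPSS2 from 0.28 to 0.34. Such settings recalculate the same libraries and move these ratios too little to test either sign. The signs that held in each of the 6 other settings are therefore no evidence that the pair differs. PAPSS2 made up 12.8% of the summed TPM of PAPSS1 and PAPSS2 in the uninjected and 16.5% in the injected wing. Cartilage markers had a median log2 ratio of 0.43, and their part in the PAPSS2 value was not tested.

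The linker that joins the chain to the core is begun by the xylosyltransferases XYLT1 and XYLT2 and extended by the galactosyltransferase B4GALT7. XYLT1 was at 30.6 TPM in the control wing and 27.2 TPM in the injected wing (−0.17), and XYLT2 at 34.2 and 29.6 TPM (−0.21). Both were lower by similar amounts, so that XYLT2 stood at 1.12 times XYLT1 in the uninjected and 1.09 times in the injected wing. B4GALT7 was at 55.6 and 55.2 TPM (−0.01). All 3 lay within 1.5-fold.

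Heparan sulfate is polymerised by a complex of EXT1 and EXT2, both mutated in human multiple exostoses, while EXTL3 starts the chain. EXT1 was at 161 TPM in the control wing and 179 TPM in the injected wing (0.15), and EXT2 at 92.6 and 81.8 TPM (−0.18). The partners of the complex therefore lay on opposite sides of 0, and EXT1 was 1.74 times EXT2 in the uninjected and 2.19 times in the injected wing. EXTL3 was at 77.5 and 78.3 TPM (0.01), and EXTL2, a related transferase, at 15.2 and 14.5 TPM (−0.07). No gene of this step passed 1.5-fold.

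**Figure D2:**
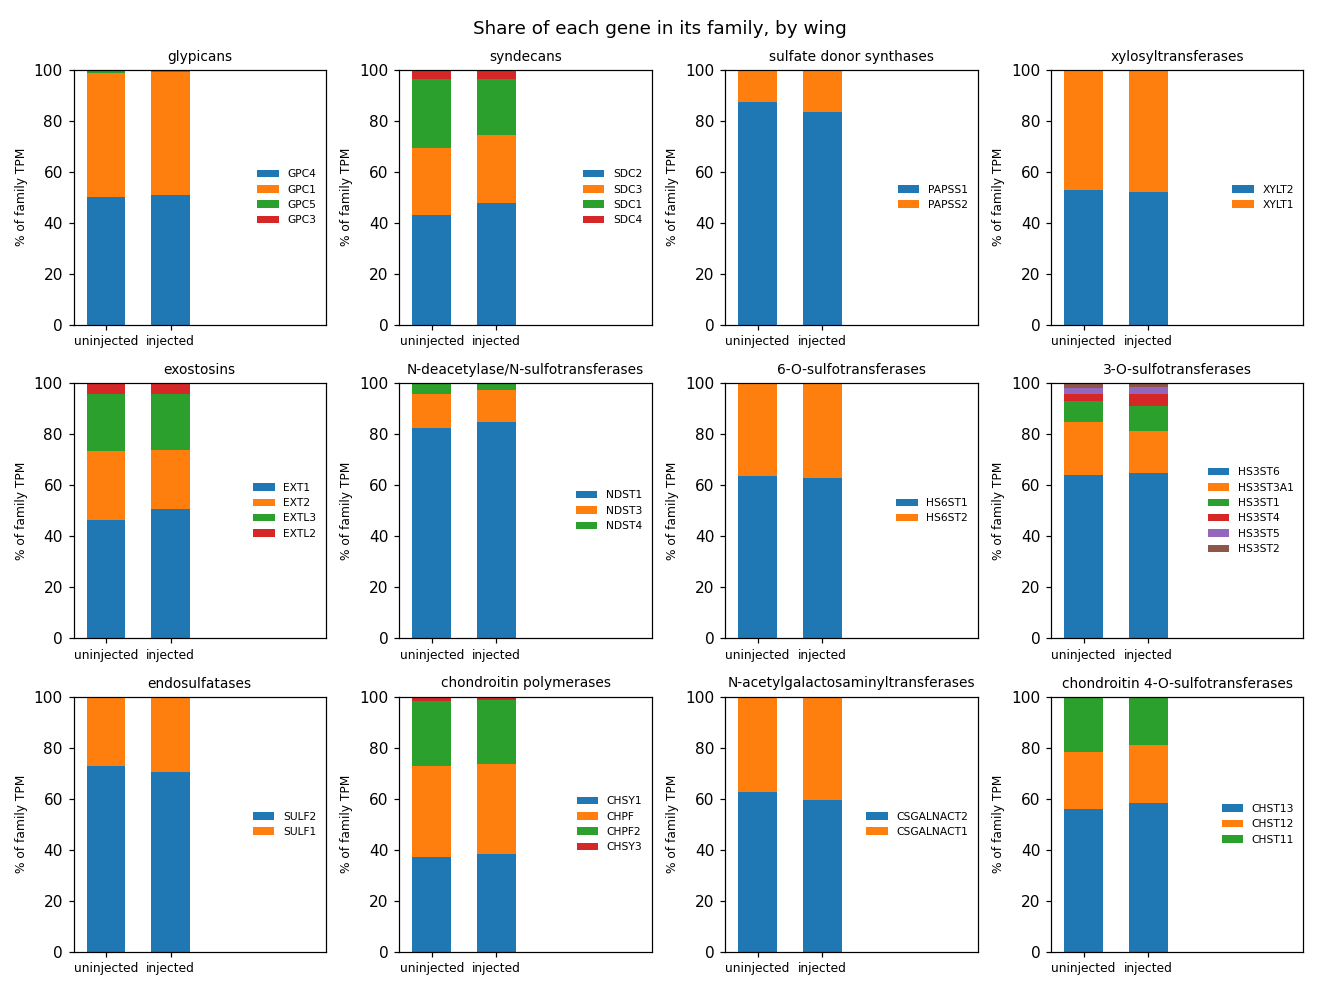
Share of each gene in the summed TPM of the measured genes of its family, in percent, in the uninjected and the injected wing (1 library each). Shown are 12 families of cores and enzymes. Genes that matched no row by name, among them GPC2, GPC6, NDST2, HS6ST3 and HS3ST3B1, are not counted. The leading measured gene of each family is the same in both wings: GPC4, SDC2, PAPSS1, XYLT2, EXT1, NDST1, HS6ST1, HS3ST6, SULF2, CHSY1, CSGALNACT2 and CHST13.

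The new heparan chain is first modified by the NDST enzymes, which replace acetyl by sulfate groups on glucosamine. NDST1 was at 63.2 TPM in the control wing and 72.0 TPM in the injected wing (0.19). It made up 82.4% and 84.7% of the summed TPM of the 3 measured NDST genes, as NDST2 matched no row by name. NDST3 was at 10.2 and 10.7 TPM (0.07), and NDST4 at 3.34 and 2.30 TPM (−0.52). NDST4 was the only one of the 3 with a lower value in the injected wing, and it stayed within 1.5-fold. HS2ST1, which sulfates the uronic acid, was at 56.6 and 61.9 TPM (0.13). The glucosamine 6-O-sulfotransferase genes HS6ST1, at 99.1 and 90.8 TPM (−0.13), and HS6ST2, at 56.6 and 53.8 TPM (−0.07), both had slightly lower values in the injected wing.

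The 3-O-sulfotransferases add a rare sulfate late in synthesis. With 6 measured genes, more than any other family counted here, this family held the widest spread of ratios. Its lowest and highest ratios belong to HS3ST2 and HS3ST4, with means from 1 to 5 TPM, where 23.2% of all genes passed 1.5-fold. HS3ST6 led the measured genes of the family at 40.2 TPM in the control wing and 35.1 TPM in the injected wing (−0.19). It held 64.0% and 64.7% of their summed TPM, without HS3ST3B1 and HS3ST1L, which matched no row by name. HS3ST3A1 was at 13.0 and 8.93 TPM (−0.53), within 1.5-fold. HS3ST1, which makes the antithrombin-binding site of heparin, was at 5.22 and 5.33 TPM (0.03), and HS3ST5 at 1.43 and 1.53 TPM (0.09).

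HS3ST2 (ENSGALG00000047475) was at 1.25 TPM in the control wing and 0.750 TPM in the injected wing (−0.67), and HS3ST4 was at 1.76 and 2.64 TPM (0.56). The first was thus lower by the 1.5-fold rule and the second fell just short of it in the higher direction. Neither position held under every setting of pseudocount, scaling and trend. With no pseudocount, HS3ST4 in the injected wing was at 1.502 times its control value, just past 1.5-fold. HS3ST2 was at −0.36 with a pseudocount of 1 TPM and at −0.53 with the abundance trend removed, both within 1.5-fold, and HS3ST4 passed 1.5-fold under each of 3 other scalings and with the trend removed, between 0.59 and 0.64. HS3ST2 also lay at the limit of expression, with a mean of 1.00 TPM, the lowest of the 56, followed by HS3ST5 at 1.48 TPM. Just outside the limit was CHST7, a chondroitin 6-O-sulfotransferase gene, with a mean of 0.826 TPM (1.14 TPM uninjected, 0.515 TPM injected). Its log2 ratio of −1.01 would be lower by the 1.5-fold rule. The hyaluronan synthase gene HAS3 was also outside, with a mean of 0.645 TPM (0.739 and 0.550 TPM, log2 ratio −0.37).

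The endosulfatases SULF1 and SULF2 remove 6-O-sulfate from finished heparan sulfate outside the cell and so alter binding of WNT and FGF proteins. SULF2 was at 195 TPM in the control wing and 199.9 TPM in the injected wing (0.04), and SULF1 at 73.2 and 84.3 TPM (0.20). SULF2 exceeded SULF1 in both wings, by 2.66 times and 2.37 times. Over the 14 genes of heparan sulfation and desulfation the sum was 620 TPM in the control wing and 630.0 TPM in the injected wing, with a median log2 ratio of 0.03.

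**Figure D3:**
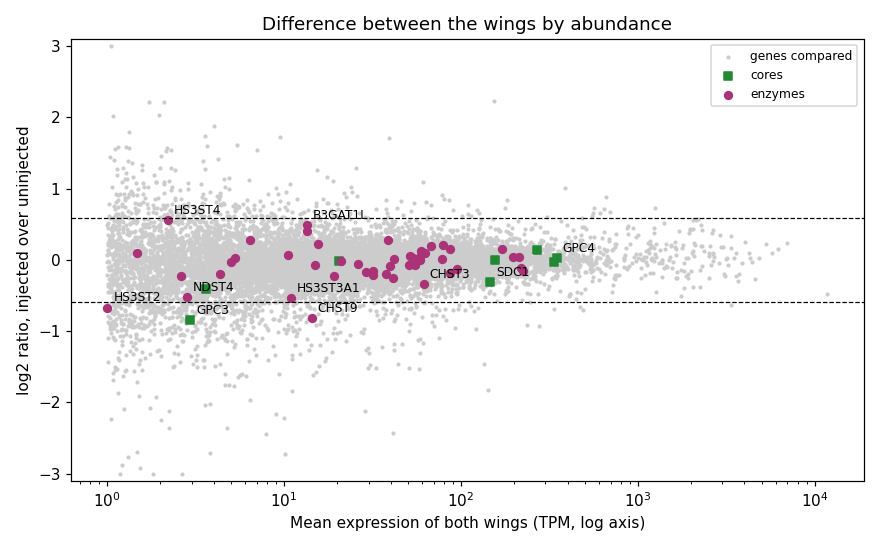
Log2 ratio of injected over uninjected, as log2(TPM + 0.1), against mean expression of both wings (TPM, log axis) for 13946 genes compared (grey), 8 core genes (green squares) and 48 enzyme genes (purple circles); dashed lines mark 1.5-fold, and 4 genes beyond 3 on the ratio axis are drawn at its edge. The genes of the set spread with falling abundance as the grey cloud does, and the 3 below the lower line are GPC3, CHST9 and HS3ST2.

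Chondroitin sulfate is polymerised by CHSY1, CHSY3 and their partners CHPF and CHPF2, after CSGALNACT1 and CSGALNACT2 add the first sugar that commits the chain. CHSY1 was at 60.8 TPM in the control wing and 64.7 TPM in the injected wing (0.09). CHPF was at 57.9 and 59.3 TPM (0.03), CHPF2 at 41.6 and 41.9 TPM (0.01), and CHSY3 at 2.82 and 2.41 TPM (−0.22). CSGALNACT2, at 44.7 and 37.7 TPM (−0.25), differed most, while CSGALNACT1 was at 26.7 and 25.6 TPM (−0.06). The sum of these 6 genes was 235 TPM in the control wing and 232 TPM in the injected wing, and none passed 1.5-fold.

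Chondroitin chains are sulfated at carbon 4 of N-acetylgalactosamine by CHST11, CHST12 and CHST13 and at carbon 6 by CHST3, the gene mutated in a human spondyloepiphyseal dysplasia. CHST3 was at 68.8 TPM in the control wing and 54.3 TPM in the injected wing (−0.34), the lowest ratio among the 37 genes of the set with a mean of at least 20 TPM. CHST11, required for cartilage growth in mouse, was at 20.7 and 17.7 TPM (−0.22). CHST12 was at 21.2 and 20.9 TPM (−0.02), and CHST13 at 53.2 and 53.9 TPM (0.02). CHST3 and CHST11 had lower values in the injected wing, CHST12 and CHST13 were close between the wings, and all 4 sulfotransferase genes stayed within 1.5-fold. Cartilage markers had higher values for 10 of 11, and their part in the CHST3 and CHST11 values was not tested. CHST15, which adds a further sulfate at carbon 6 to chains already sulfated at carbon 4, was at 58.7 and 58.4 TPM (−0.01).

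Dermatan sulfate arises when an epimerase converts glucuronic to iduronic acid in a chondroitin chain. The epimerase gene DSEL was at 11.6 TPM in the control wing and 15.4 TPM in the injected wing (0.40). CHST14, the dermatan 4-O-sulfotransferase gene, was the most abundant sulfotransferase gene of the set, at 228 and 210.0 TPM (−0.12). UST, which sulfates iduronic acid, was at 40.8 and 38.4 TPM (−0.09). CHST14 thus stood 11.0 times above CHST11 in the uninjected and 11.9 times in the injected wing. The 8 genes of chondroitin and dermatan sulfate modification summed to 502 TPM in the control wing and 469 TPM in the injected wing, a log2 ratio of −0.10 for the sum. In the main setting 6 of the 8 lay below 0. Of the 8, 4 stayed below 0 and 2 stayed above 0 in all 7 settings, while CHST12 and CHST15 changed sign. Among all 13946 genes compared, 6542 lay below 0 and 5590 above 0 in every setting.

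The remaining CHST genes act on other sugars. CHST9 (ENSGALG00000019489), which sulfates terminal N-acetylgalactosamine on glycoproteins and is not an enzyme of the chondroitin chain, was at 18.3 TPM in the control wing and 10.3 TPM in the injected wing (−0.82). Its lower value held the 1.5-fold rule in all 6 other settings of pseudocount, scaling and trend, between −0.82 and −0.75. Those settings recalculate the same libraries and cannot show whether the difference would recur. CHST9 was the only one of the 3 lower genes with a mean above 5 TPM. CHST8, an enzyme of the same reaction, was at 4.62 and 4.02 TPM (−0.20). The sulfotransferases of keratan sulfate and related chains were closer, with CHST1 at 14.4 and 16.8 TPM (0.22), CHST2 at 82.2 and 91.5 TPM (0.15) and CHST6 at 51.9 and 49.3 TPM (−0.08). Epidermis, red blood cell and bone marker sums were lower in the injected wing, as given above, and their part in the lower values of CHST9, GPC3 and HS3ST2 was not tested.

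The HNK-1 sugar, a sulfated epitope of nerve and cell adhesion proteins, is made by the glucuronyltransferases B3GAT1 and B3GAT2 and sulfated by CHST10. B3GAT1 was at 5.80 TPM in the control wing and 7.07 TPM in the injected wing (0.28), and B3GAT2 at 5.08 and 4.95 TPM (−0.04). B3GAT1L, named for its likeness to B3GAT1, was at 11.1 and 15.6 TPM (0.49), and CHST10 at 50.2 and 52.4 TPM (0.06). B3GAT1L had the second highest ratio of the set, after HS3ST4. Schwann cell and nerve markers had a median log2 ratio of 0.60, and their part in these values was not tested. HAS2, which makes hyaluronan, a chain with no core and no sulfate, was at 33.6 and 30.3 TPM (−0.15).

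Size of difference went with abundance in this set as among all genes. Of 8 genes with a mean of 1 to 5 TPM, 2 passed 1.5-fold, where 23.2% of all genes in that range did, and of 11 genes from 5 to 20 TPM, 1 passed, where 7.04% did. Among 27 genes from 20 to 100 TPM and 10 genes above 100 TPM, 0 passed, where 2.04% and 1.87% of all genes did. The 37 genes of at least 20 TPM all had ratios between −0.34 (CHST3) and 0.28 (PAPSS2). Their median log2 ratio was −0.01, beside −0.03 for all 7881 genes of that level. The median size of the log2 ratio, without its sign, was 0.46 for the 8 genes from 1 to 5 TPM, beside 0.31 for all genes of that range, and 0.22 beside 0.17 from 5 to 20 TPM. It was 0.09 beside 0.11 from 20 to 100 TPM, and 0.08 beside 0.10 above 100 TPM.

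**Figure D4:**
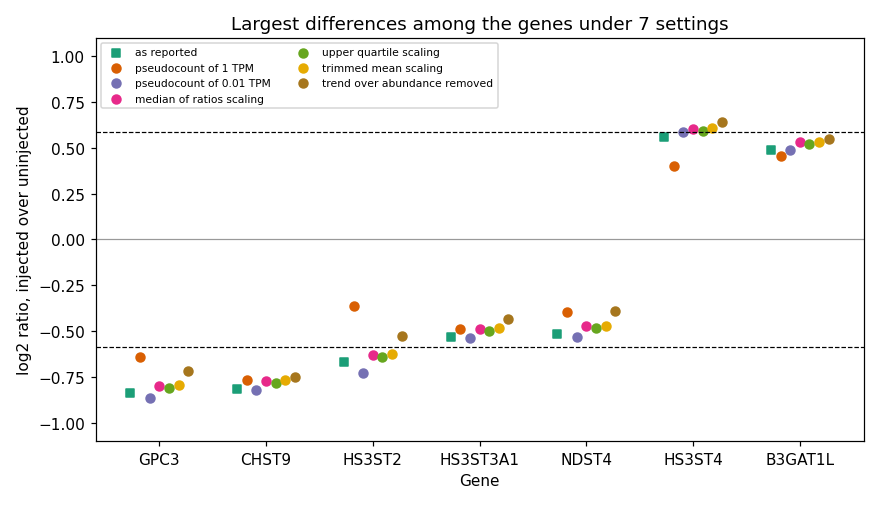
Log2 ratio of injected over uninjected for the 7 genes with a size above 0.45, as reported (squares) and under 6 other settings of pseudocount, scaling or trend (circles); dashed lines mark 1.5-fold. GPC3 and CHST9 lie below the lower line in all settings, whereas HS3ST2 and HS3ST4 cross a line.

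Several members lie next to each other on the chromosome, which gives a comparison of neighbours. By the order of protein-coding genes in the RefSeq table of assembly GRCg7b, HS6ST2, GPC4 and GPC3 stand in a row, as do NDST3 with NDST4 and HS3ST2 with HS3ST4. HS6ST2 (−0.07) and GPC4 (0.02) both lay within 0.1 of 0. GPC4 exceeded GPC3 by 90.4 times in the uninjected and by 168 times in the injected wing, and NDST3 exceeded NDST4 by 3.06 and 4.67 times. HS3ST2 and HS3ST4 lay on opposite sides of 0, at −0.67 and 0.56. GPC3, NDST4, HS3ST2 and HS3ST4 all have a mean from 1 to 5 TPM, where 23.2% of all genes passed 1.5-fold.

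Genes of the same pathway and of related sugar metabolism, outside the symbol rule, were read from 4 lists. In these, 68 genes were compared, of which CD44 stood in a pair of lists. None was higher and 4 were lower by more than 1.5-fold. That is 5.88%, beside 4.79% of all genes compared and 3.22% of those with a symbol. The median log2 ratio of the 68 genes was −0.04. Of 18 genes for linker completion, epimerisation and the supply of sugars and sulfate, 0 passed (median −0.02). The most abundant were GFPT1, which starts hexosamine synthesis, at 117 TPM in both wings, and GMPPA, a regulator of GDP-mannose synthesis, at 83.1 and 78.3 TPM. GMPPA was listed for sugar supply in general and not as a step of these chains.

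Of 17 other proteoglycan cores, 2 were lower by more than 1.5-fold, beside 4.79% of all genes compared (median −0.09). A ratio below 0 was found for 13 (76.5%), beside 59.7% of all genes compared, and 9 lay below 0 in every setting. SPOCK2, the secreted core testican-2, was at 92.7 TPM in the control wing and 57.0 TPM in the injected wing (−0.70), and PTPRZ1, a receptor phosphatase that carries chondroitin sulfate, at 10.5 and 6.34 TPM (−0.72). HSPG2, the basement membrane core perlecan, was at 126 and 95.6 TPM (−0.39), and APLP2, a relative of the amyloid precursor protein, was the most abundant at 273 and 282 TPM (0.04). PTPRZ1 has a mean from 5 to 20 TPM, where 7.04% of all genes passed 1.5-fold. SPOCK2 has a mean from 20 to 100 TPM, where 2.04% of all genes and 0 of 27 glypican, syndecan and enzyme genes passed 1.5-fold. Calls were thus rare at that level among all genes too.

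Of 20 genes that break down glycosaminoglycans, 2 were lower by more than 1.5-fold, beside 4.79% of all genes compared (median −0.09). A ratio below 0 was found for 14 (70%), beside 59.7% of all genes compared, and 12 lay below 0 in every setting. HPSE, the heparanase that cuts heparan sulfate, was at 2.45 TPM in the control wing and 1.49 TPM in the injected wing (−0.68), and HYAL3, of the hyaluronidase family, at 5.61 and 3.36 TPM (−0.72). Both have a mean under 5 TPM, where 23.2% of all genes passed, and HPSE was within 1.5-fold, at −0.47, with a pseudocount of 1 TPM. The lysosomal enzyme gene GLB1, among the most abundant of the list, was at 48.9 and 51.4 TPM (0.07). Of 14 genes of hyaluronan binding and the keratan sulfate chain, 0 passed (median 0.00), and the hyaluronan receptor HMMR stood at 56.2 and 55.5 TPM and B4GALT4 at 45.7 and 48.7 TPM.

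**Figure D5:**
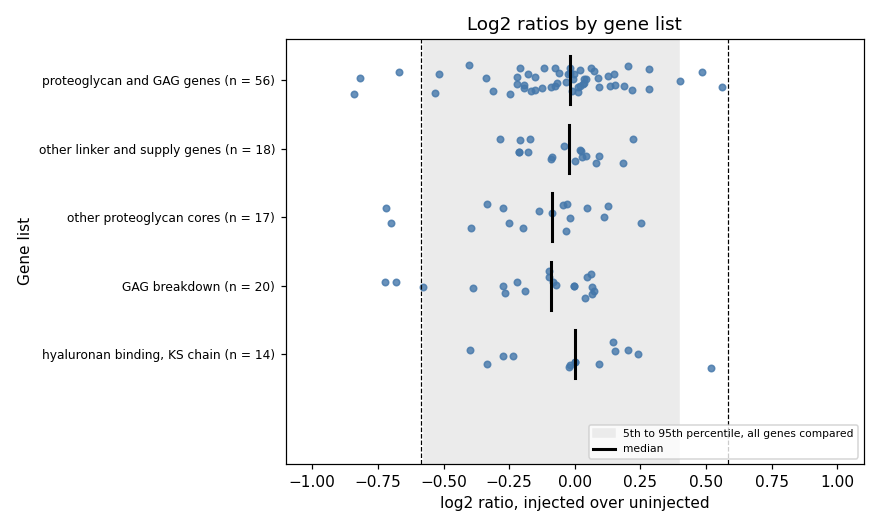
Log2 ratio of injected over uninjected for the 56 genes and for 4 lists of other genes of the pathway or of related sugar metabolism. Each point is 1 gene, and a black bar marks the median of each list. The grey band runs from the 5th to the 95th percentile of all 13946 genes compared (−0.57 to 0.40), and dashed lines mark 1.5-fold. All 5 medians lie between −0.09 and 0.00, and the 7 points past a dashed line are all on the lower side.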

How the data were processed

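Messenger RNA libraries of 1 injected and 1 uninjected wing were compared. Per the labels' protocols, 1 µg of RNA per sample went into an NEBNext Ultra library with paired-end reads. HISAT2 2.2.1, StringTie 2.1.7 and build GRCg6a come from the submitters' processing notes; their settings, the annotation release and strand use are not stated there. The authors deposited TPM values, which keep no depth, so counting error could not be given. A raw count table was not used, because the names of its 2 columns match neither sample's title.

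Genes compared (13946) had a mean of at least 1 TPM, were above 0 in both wings and were not among 1309 short RNAs. The ratio was log2(TPM + 0.1) injected minus uninjected, which understates the change of low genes, and 1.5-fold (0.58 on the log2 scale) was the rule of size. No sequences of these genes were used here. A further 13 pathway symbols, among them DSE, GPC6, NDST2 and B3GAT3, matched no row by name, and 10487 rows have no symbol. The members, roles and lists were chosen with earlier results of these data known. Of each list the genes past 1.5-fold and the 2 most abundant are named; HSPG2 is among the latter, and 1 gene that this rule names is not reported here. Alternatives were pseudocounts of 1 and 0.01 TPM, 3 scalings, removal of the running median over 501 genes, other minimum levels and a 2-fold rule. The calculation was tested on simulated data with planted differences and equal noise at every abundance. That checks the code and not how well the 1.5-fold rule works for genes of low abundance. Python 3.11.15, pandas 2.3.3, NumPy 2.4.6 and matplotlib 3.10.9 were used.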

Additional observations from a re-analysis of the deposited data

How the results depend on the processing

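The ratio of GPC3 and of CHST9 kept its direction and its place past 1.5-fold under 2 other pseudocounts, 3 scalings and removal of the abundance trend. All of these settings recalculate the same libraries and cannot replace a replicate. The 3 scalings moved all ratios by 0.03 to 0.05. The count of higher genes among the 56 went from 0 to 1 (1.79%), HS3ST4, under each of the 3 scalings and with the trend removed. Of all genes compared, 2.61% to 2.75% were higher under the 3 scalings and 3.12% with the trend removed, so this count was below the background. The count of lower genes went from 3 to 1 of 48 (2.08%) with a minimum mean of 5 TPM, where CHST9 remained, beside 2.54% of all genes. Under a 2-fold rule it was 0, beside 1.48% of all genes. In the 4 pathway lists it went from 4 to 2 of 63 (3.17%) and to 0 under the same settings, since fewer genes or a wider fold were used. Over all genes compared, the counts of higher and lower genes were 186 and 432 with a pseudocount of 1 TPM and 70 and 207 under the 2-fold rule. They were 122 and 292 of 11515 genes with a minimum of 5 TPM, and 831 and 1298 of 16844 with no minimum. Among the 10976 genes with a symbol only, a setting added after the data were examined, they were 186 and 353. With no minimum, 4 of the 58 rows that fitted by symbol were lower (6.90%), CHST7 among them, beside 7.71% of all genes. No paired analysis was possible because each group held 1 library. Unknown depth limits every value under 5 TPM most, GPC3 and HS3ST2 included.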
